A study of Mus musculus with 34 samples.

Results

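The mitochondrial carriers of the Slc25 family were examined in kidneys with cysts. The genes were chosen by symbol alone, as Slc25a followed by a number, which gave 47 of the 23509 genes in the count tables. Of these, 46 had a count in at least 1 library and 42 passed the filter on low counts and were tested. Slc25 proteins are small carriers that span the inner mitochondrial membrane and exchange nucleotides, phosphate, organic acids, amino acids, coenzymes and metal ions between the cytosol and the matrix. A few members sit elsewhere, such as *Slc25a17* in peroxisomes and *Slc25a46* in the outer mitochondrial membrane. Kidney tubules, above all the proximal tubule, hold many mitochondria because they pay for the reabsorption of salt and solutes by oxidation of fuel, and these carriers set which substrates reach the matrix and which products leave it.

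Kidney mRNA was sequenced from 34 C57BL6 mice on postnatal day 28 (P28). The mouse model carries floxed *Pkd2* alleles and a Pkhd1/cre transgene, whose promoter drives Cre in renal tubules, collecting ducts included, and the labels spell this genotype "Pdk2KO". These *Pkd2*-KO mice were injected subcutaneously with PBS (n = 11) or with 20 mg per kg of RGLS4326 (n = 11) on P10, P11, P12 and P19. RGLS4326 is a short, chemically modified oligonucleotide that pairs with the seed of the microRNA miR-17. Age-matched non-transgenic mice (UNT, n = 12) were untreated, so PBS and UNT mice differ both in genotype and in injection. PBS vs UNT is called the disease comparison and RGLS4326 vs PBS the treatment comparison. Both use the PBS mice. Each library held 17603122 to 54981992 reads in genes, and the targeted gene *Pkd2* lay between 219.6 and 338 CPM in UNT, between 98.0 and 215 in PBS and between 170.0 and 237 CPM in RGLS4326 mice.

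Levels are given as CPM, counts of a gene scaled to a common library size by TMM. Adjusted p is the Benjamini-Hochberg adjusted p of edgeR's two-sided quasi-likelihood test over all 15644 tested genes, a gene was called at an adjusted p under 0.05, and each log2 fold change is given with its standard error (SE). The lowest count of a tested member in any library was 20, for *Slc25a43*, and the highest was 66498, for *Slc25a5*.

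In cystic kidneys most of the family was lower. The summed level of the 47 members was 5686 to 6869 CPM in UNT mice (median 6452), 2824 to 3686 CPM in PBS mice (median 3275) and 2909 to 3876 CPM in RGLS4326 mice (median 3405). The UNT sums lay above every sum of both groups with cysts, and the sums of those 2 groups overlapped. The 3 carriers *Slc25a3*, *Slc25a4* and *Slc25a5*, which bring phosphate and ADP into the matrix and release ATP, made up a mean of 42.7%, 43.7% and 42.9% of the sum in UNT, PBS and RGLS4326 kidneys.

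In the disease comparison 36 of the 42 tested members were lower, 2 were higher and 4 were not called. Of all 15644 tested genes, 39.0% were lower and 43.1% were higher. The median log2 fold change of the members was -0.73, beside 0.04 over all tested genes, and 13 members were lower by more than 1 on the log2 scale. In 26 members every PBS mouse was below every UNT mouse, and in 2 every PBS mouse was above, against 19.8% and 22.7% of all tested genes. With library totals alone in place of TMM, which moved the median of all genes to 0.33, 31 members were lower and 6 higher, with *Slc25a14*, *Slc25a29*, *Slc25a30* and *Slc25a53* added to the higher ones, and *Slc25a22* and *Slc25a44*, 2 of the 36 lower members, turned to 0.04 and 0.08. *Slc25a24*, *Slc25a43* and the 31 lower members were called in the same direction under both scalings. Within each of the 3 sets of libraries marked by the numbering of the tables, all 36 lower members had a negative and both higher members a positive log2 fold change. The members were called from these same libraries, so this is no independent check.

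**Figure D1:**
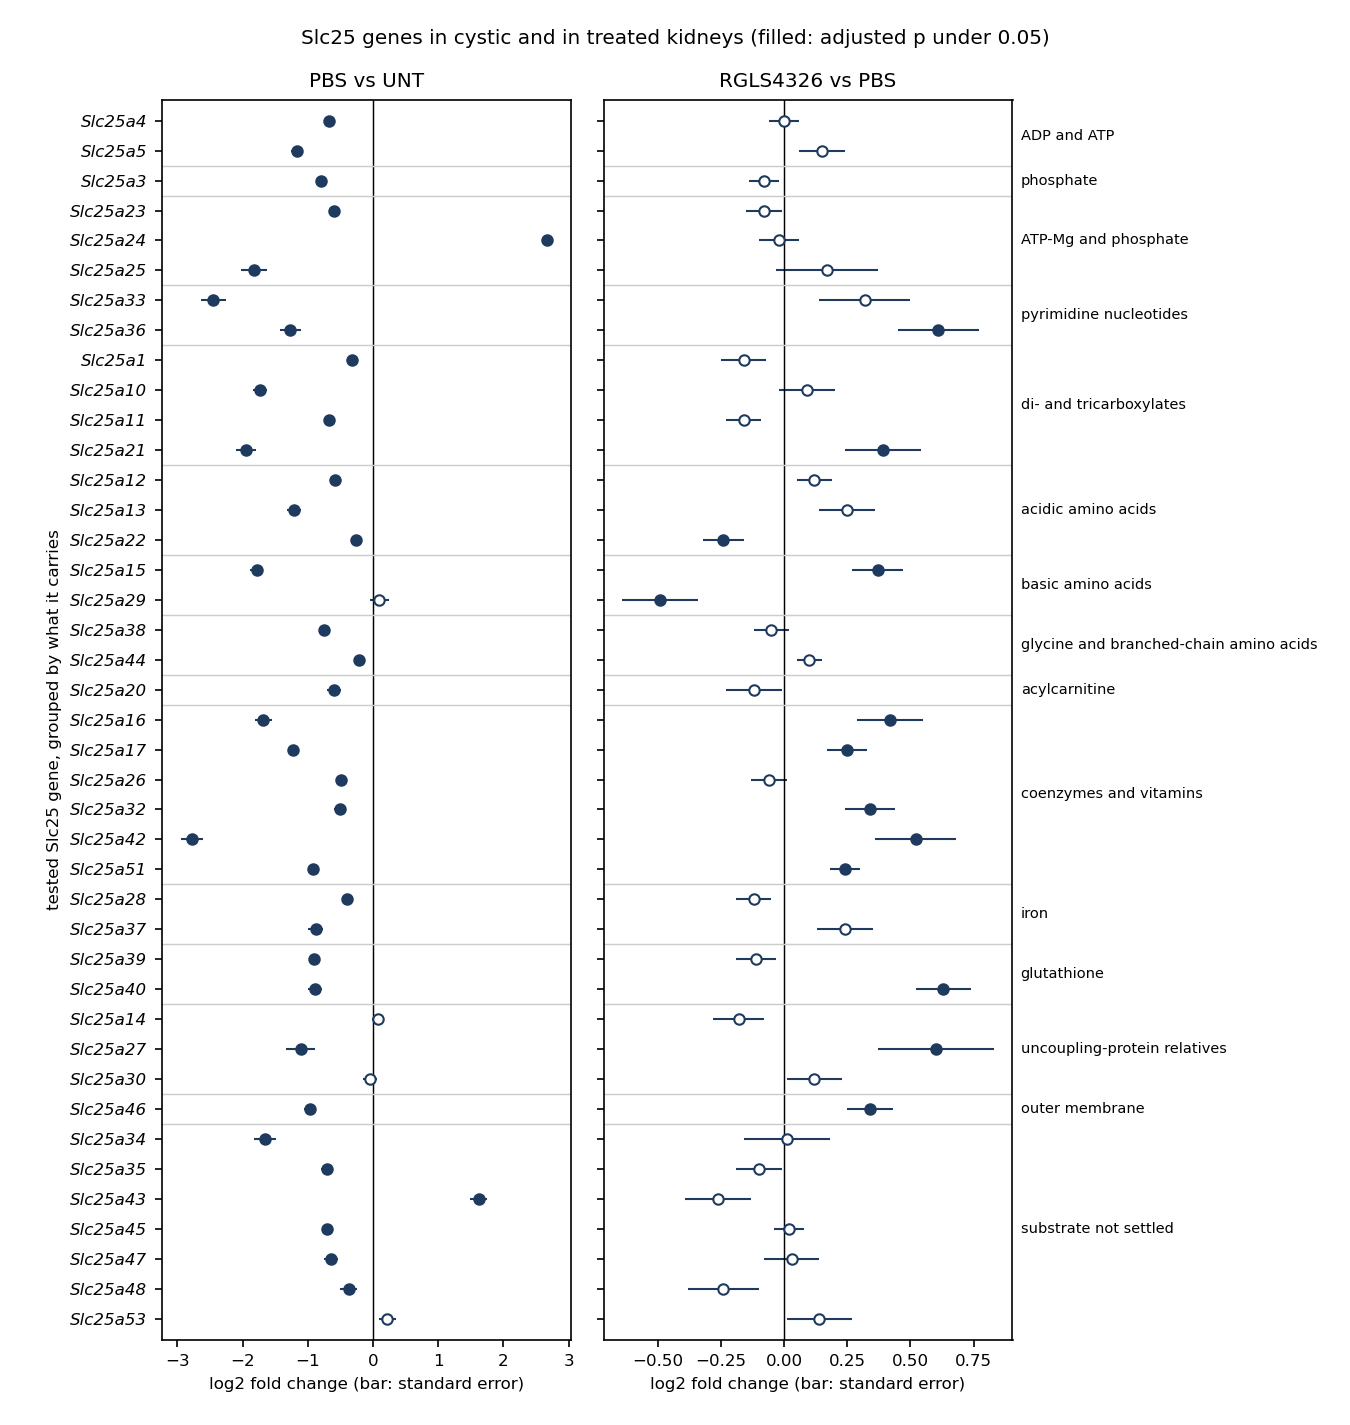
Log2 fold change of 41 of the 42 tested Slc25 genes (rows, grouped by what they carry) in PBS vs UNT (left) and RGLS4326 vs PBS (right, with a narrower axis). Points are the edgeR estimates, bars their standard errors, and filled points passed an adjusted p of 0.05. On the left 35 filled points lie below 0 and 2 above, with *Slc25a24* at 2.67, and on the right 11 lie above 0 and 2 below.

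Markers of the proximal, loop and distal tubule and of podocytes moved with these levels. All 9 proximal tubule markers were lower in PBS than in UNT kidneys, and their summed level was 11072 to 15566 CPM in UNT, 1455 to 4050 in PBS and 2590 to 4307 CPM in RGLS4326 mice. All 5 markers of the loop and distal tubule were lower too, with sums of 8006 to 12173, 2493 to 4832 and 3872 to 5704 CPM. Of these 14 genes *Pvalb* had no count in 6 PBS and 2 RGLS4326 libraries, and the other 13 had counts in every library. All 4 podocyte markers were lower, with sums of 517 to 629, 204 to 315 and 275 to 346 CPM. Of 6 collecting duct markers 3 were higher (*Aqp2*, *Aqp3* and *Avpr2*) and 3 lower, with sums of 536 to 894, 414 to 1641 and 273 to 1381 CPM. In whole kidney, fewer cells of a type and less RNA per cell cannot be told apart, and the part of these cell types in the carrier levels was not tested. Of 10 genes of mitochondrial mass and biogenesis, such as *Tfam* and *Ppargc1a*, 9 were lower and 1 (*Nrf1*) was higher, with a median log2 fold change of -0.90.

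The carriers of the ATP supply were the most abundant members. Per kb of transcript, the mean levels in UNT kidneys were highest for *Slc25a5* (1023 CPM per kb), *Slc25a3* (613), *Slc25a39* (286) and *Slc25a4* (251). *Slc25a5*, the adenine nucleotide translocase Ant2, stood at 1087 to 1509 CPM in UNT mice (median 1267), 424 to 698 in PBS mice (median 555) and 479 to 759 in RGLS4326 mice (median 639). Every mouse with cysts was below every UNT mouse. The disease log2 fold change was -1.17 (SE 0.09, adjusted p = 6.1e-15, edgeR). *Slc25a4*, its relative Ant1 of heart and muscle, stood at 456 to 555 CPM in UNT (median 476), 244 to 337 in PBS (median 298) and 254 to 361 in RGLS4326 mice (median 299), a disease log2 fold change of -0.68 (SE 0.06, adjusted p = 7.33e-13, edgeR). The ratio of *Slc25a5* to *Slc25a4* CPM within a mouse was 2.24 to 3.07 in UNT and 1.69 to 2.16 in PBS mice, so these ranges did not overlap, and 1.86 to 2.51 in RGLS4326 mice. Counts of *Slc25a5* are less certain because it has a pseudogene in the annotation.

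*Slc25a3*, the phosphate carrier, stood at 928 to 1090 CPM in UNT (median 975), 489.9 to 698 in PBS (median 577) and 443 to 612 in RGLS4326 mice (median 530.1). Its groups with cysts also lay wholly below UNT, and the disease log2 fold change was -0.80 (SE 0.06, adjusted p = 5.55e-14, edgeR).

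The carriers that exchange ATP-Mg for phosphate moved in opposite directions. They are regulated by calcium and set the total adenine nucleotide content of the matrix. *Slc25a24* (SCaMC-1; chromosome 3, 109123149 to 109168457, GRCm38) stood at 9.31 to 12.9 CPM in UNT mice (median 10.2), 50.1 to 81.5 in PBS mice (median 66.5) and 53.0 to 75.5 in RGLS4326 mice (median 66.5). Every mouse with cysts was above every UNT mouse, and the disease log2 fold change of 2.67 (SE 0.08, adjusted p = 3.48e-25, edgeR), a 6.38-fold higher level, was the largest rise in the family. *Slc25a25* (SCaMC-2) stood at 88.4 to 285 CPM in UNT (median 170.3), 35.4 to 101 in PBS (median 48.6) and 33.7 to 125 in RGLS4326 mice (median 50). A single PBS mouse, at 101 CPM, reached into the UNT range, and the disease log2 fold change was -1.82 (SE 0.20, adjusted p = 4.55e-10, edgeR). *Slc25a23* (SCaMC-3) stood at 109 to 164 CPM in UNT (median 146), 76.8 to 113 in PBS (median 93.7) and 72.8 to 106 in RGLS4326 mice (median 84.7), a disease log2 fold change of -0.60 (SE 0.07, adjusted p = 1.78e-09, edgeR). Within a mouse the ratio of *Slc25a24* to *Slc25a25* CPM had a median of 0.0658 in UNT, 1.43 in PBS and 1.23 in RGLS4326 mice, and the highest UNT ratio, 0.121, lay below the lowest of both other groups, 0.645 and 0.441. *Slc25a41* and *Slc25a54*, also of this class, were below the filter.

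Markers of immune cells and fibroblasts moved with *Slc25a24*. All 5 macrophage markers were higher in PBS than in UNT kidneys, with summed levels of 90.1 to 159 CPM in UNT, 739.5 to 2441 in PBS and 675 to 1419 in RGLS4326 mice. All 6 fibroblast markers were higher, with sums of 602 to 1498, 3184 to 6613 and 4261 to 6268 CPM, and 4 of 5 T cell markers were higher, with sums of 3.14 to 6.04, 10.2 to 30.8 and 6.44 to 15.3 CPM. The part of these cells in the level of *Slc25a24* was not tested. In the treatment comparison 4 of 5 macrophage and 4 of 5 T cell markers were lower, 1 of 6 fibroblast markers was higher and 5 were not called. Without the 4 RGLS4326 libraries with the most reads in no gene, described with the treatment results, 0 macrophage and 0 T cell markers were called by edgeR and 1 fibroblast marker was. *Slc25a24* had a change of -0.02 on the log2 scale (SE 0.08, adjusted p = 0.859, edgeR).

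**Figure D2:**
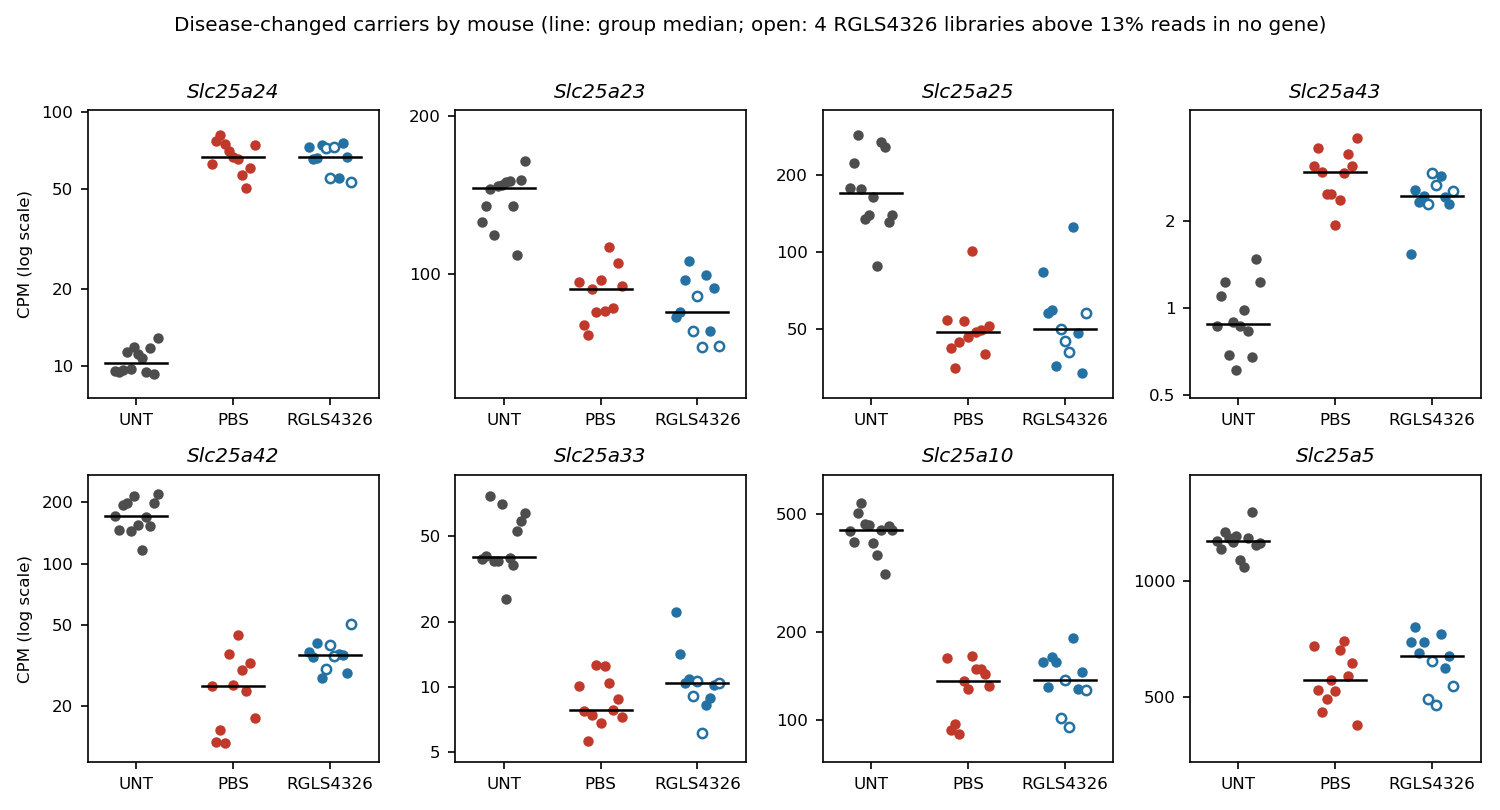
CPM per mouse (log axis, 1 point a mouse) of 8 carriers in UNT (n = 12), PBS (n = 11) and RGLS4326 (n = 11) kidneys, with the group median as a line and open points for the 4 RGLS4326 libraries with the most reads in no gene. *Slc25a24* rises from a median of 10.2 to 66.5 CPM while its relatives *Slc25a23* and *Slc25a25* are lower in PBS than in UNT mice, and *Slc25a42* shows the largest fall.

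Both carriers of pyrimidine nucleotides, which feed the synthesis of mitochondrial DNA and RNA, were lower. *Slc25a33* stood at 25.5 to 77.2 CPM in UNT mice (median 40.0), 5.60 to 12.7 in PBS mice (median 7.85) and 6.11 to 22.4 in RGLS4326 mice (median 10.4), with all mice with cysts below all UNT mice. Its disease log2 fold change was -2.45 (SE 0.19, adjusted p = 2.04e-14, edgeR). *Slc25a36* stood at 70.2 to 119 CPM in UNT (median 94.7) and 18.6 to 56.6 in PBS mice (median 38.0), a disease log2 fold change of -1.27 (SE 0.16, adjusted p = 4.26e-09, edgeR).

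All 4 carriers of di- and tricarboxylates were lower, by very different amounts. *Slc25a10*, which exchanges malate or succinate for phosphate, stood at 313 to 545 CPM in UNT mice (median 442), 89.9 to 165 in PBS mice (median 136) and 94.8 to 190 in RGLS4326 mice (median 137). The disease log2 fold change was -1.73 (SE 0.11, adjusted p = 3.58e-16, edgeR), and no mouse with cysts reached the UNT range. *Slc25a21*, the carrier of oxoadipate from lysine breakdown, stood at 15.6 to 31.2 CPM in UNT, 3.31 to 9.10 in PBS and 4.94 to 9.94 in RGLS4326 mice, with medians of 21.6, 5.20 and 7.65 CPM. Its disease log2 fold change of -1.95 (SE 0.15, adjusted p = 3.47e-14, edgeR) stood beside 4 enzymes of lysine breakdown, *Aass*, *Aadat*, *Dhtkd1* and *Gcdh*, of which all 4 were lower, with log2 fold changes of -3.37 to -2.13. *Slc25a1*, which exports citrate for the synthesis of fatty acids, fell by only 0.32 on the log2 scale (SE 0.08, adjusted p = 0.00079, edgeR), and its range of 81.3 to 119 CPM in PBS mice overlapped that of 102 to 150 in UNT mice. Within the library sets its log2 fold change was -0.45, -0.59 and -0.01, and it was not called in set 3 or with library totals alone (-0.03, adjusted p = 0.761, edgeR). The enzymes on either side of citrate export, *Cs*, *Acly*, *Acaca* and *Fasn*, were all lower, with a median of -0.61.

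The malate-aspartate shuttle moves reducing equivalents into the matrix through *Slc25a11*, which exchanges oxoglutarate for malate, and the aspartate carriers *Slc25a12* (aralar) and *Slc25a13* (citrin). All 3 were lower, with disease log2 fold changes of -0.67, -0.58 and -1.21, as were the shuttle's 4 enzymes *Mdh1*, *Mdh2*, *Got1* and *Got2*, with a median of -0.80. The aspartate carriers changed unequally. *Slc25a13* went from a median of 166 to 68.7 CPM and *Slc25a12* from 90.8 to 59.8 CPM, and their ratio within a mouse had a median of 1.79 in UNT, 1.1 in PBS and 1.22 in RGLS4326 mice, with ranges of 1.45 to 2.53 in UNT and 0.992 to 1.52 in PBS mice that overlapped. *Slc25a22*, the main glutamate carrier, stood at 21.9 to 34.6 CPM in UNT (median 25.4), 18.6 to 26.1 in PBS (median 22) and 15.0 to 23.5 in RGLS4326 mice (median 18.9). The groups overlapped, and the disease log2 fold change was -0.26 (SE 0.08, adjusted p = 0.00263, edgeR), which turned to 0.04 with library totals alone.

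Among carriers of basic amino acids, *Slc25a15*, which exchanges ornithine for citrulline, stood at 154 to 264 CPM in UNT mice (median 189), 39.2 to 74.0 in PBS mice (median 53.5) and 61.4 to 84.6 in RGLS4326 mice (median 70.3). Every UNT mouse was above every mouse with cysts, and the disease log2 fold change was -1.78 (SE 0.10, adjusted p = 1.26e-17, edgeR). *Slc25a29*, a carrier of arginine and lysine, was not called in disease, with 4.97 to 10.1 CPM in UNT and 5.65 to 10.1 in PBS mice and a change of 0.10 on the log2 scale (SE 0.14, adjusted p = 0.539, edgeR). Of 6 tested enzymes of ornithine and arginine metabolism 5 were lower, with *Gatm*, the first enzyme of creatine synthesis, at -3.28.

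The glycine carrier *Slc25a38*, which supplies heme synthesis, fell by 0.75 on the log2 scale (SE 0.07, adjusted p = 4.71e-12, edgeR) beside 8 of 9 heme enzymes that were lower, with a median of -0.70. *Slc25a44*, which carries branched-chain amino acids, fell by only 0.22 on the log2 scale (SE 0.05, adjusted p = 0.000184, edgeR) and turned to 0.08 with library totals alone, whereas all 5 enzymes of their breakdown were lower with a median of -1.68. *Slc25a20*, which brings acylcarnitines in for fatty acid oxidation, fell by 0.60 on the log2 scale (SE 0.11, adjusted p = 6.02e-06, edgeR), with 47.3 to 84.3 CPM in PBS and 64.1 to 118 CPM in UNT mice. The 8 enzymes of the carnitine shuttle and fatty acid oxidation were all lower with a median of -1.19. For both carriers, then, the log2 fold change was smaller in size than the median of the enzymes they serve, a difference that was not tested.

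All 7 carriers of coenzymes and vitamins were lower. *Slc25a42*, a coenzyme A carrier, stood at 117 to 218 CPM in UNT mice (median 170.4), 13.3 to 44.5 in PBS mice (median 25.3) and 27.4 to 50.4 in RGLS4326 mice (median 35.9). Its disease log2 fold change of -2.78 (SE 0.17, adjusted p = 2.53e-17, edgeR), a 6.86-fold lower level, was the largest fall in the family, and 1.27% of all tested genes had a lower one. *Slc25a16*, also linked to coenzyme A, fell by 1.68 (SE 0.13) on the log2 scale, and the peroxisomal carrier *Slc25a17* fell by 1.22 (SE 0.07). The ratio of *Slc25a42* to *Slc25a16* CPM within a mouse was 0.771 to 1.53 in UNT and 0.392 to 0.733 in PBS mice, 2 ranges that did not overlap. The 6 enzymes that make coenzyme A were all lower, with a median of -0.67. The carriers of NAD (*Slc25a51*, -0.92), S-adenosylmethionine (*Slc25a26*, -0.49) and folate and FAD (*Slc25a32*, -0.51) fell less. *Slc25a32* was not called with the share of reads outside genes in the model (-0.14, adjusted p = 0.362, edgeR). Of 5 mitochondrial folate enzymes, *Mthfd2*, *Mthfd1l* and *Aldh1l2* were higher and *Shmt2* was lower.

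Both mitoferrins, which import iron, were lower, with log2 fold changes of -0.88 (SE 0.11) for *Slc25a37* and -0.40 (SE 0.07) for *Slc25a28*. *Slc25a28* was not called with library totals alone (-0.11) or in set 3 (-0.15), nor *Slc25a37* with the share of reads outside genes in the model (-0.16). The glutathione carriers *Slc25a39* and *Slc25a40* were lower with log2 fold changes of -0.90 (SE 0.08) and -0.89 (SE 0.11), and 4 of 4 genes of glutathione synthesis and recycling were lower with a median of -1.07. *Slc25a39* stood at 378 to 549 CPM in UNT (median 488), 209 to 317 in PBS (median 256) and 184 to 292 in RGLS4326 mice (median 245), wholly below UNT in both groups with cysts. Red cell markers, whose precursors use mitoferrin and heme carriers heavily, summed to 0.612 to 2.15 CPM in UNT, 1.15 to 1.96 in PBS and 0.988 to 2.17 CPM in RGLS4326 mice over 6 genes, with *Hbb-bt* at 0 in all groups.

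Of 3 relatives of the uncoupling proteins, *Slc25a27* fell by 1.11 on the log2 scale (SE 0.22, adjusted p = 2.8e-05, edgeR), a change that turned to 0.42 (adjusted p = 0.00714, edgeR) with the share of reads outside genes in the model. *Slc25a30*, known from kidney, had a change of -0.05 on the log2 scale (SE 0.11, adjusted p = 0.694, edgeR) and *Slc25a14* of 0.07 (SE 0.09, adjusted p = 0.475, edgeR). *Slc25a46*, an outer membrane protein of mitochondrial shape, fell by 0.96 on the log2 scale (SE 0.09). Among the 7 members with no settled substrate, 5 were lower and 1 higher. *Slc25a43* stood at 0.612 to 1.48 CPM in UNT mice (median 0.884), 1.93 to 3.85 in PBS mice (median 2.94) and 1.54 to 2.92 in RGLS4326 mice (median 2.44). All mice with cysts were above all UNT mice, and the log2 fold change was 1.62 (SE 0.13, adjusted p = 1.54e-13, edgeR). It lies near *Slc25a5* on chromosome X. *Slc25a34* stood at 26.3 to 52.2 CPM in UNT (median 41.3), 5.20 to 21.3 in PBS (median 12.1) and 9.08 to 18.9 in RGLS4326 mice (median 11.3), a disease log2 fold change of -1.66 (SE 0.17, adjusted p = 4.48e-11, edgeR). *Slc25a35* had medians of 35.2, 21.7 and 19.6 CPM in UNT, PBS and RGLS4326 mice and *Slc25a45* of 51.0, 31.9 and 33.5 CPM, and in both no PBS mouse reached the UNT range of 26.8 to 40.0 and 40.4 to 64.1 CPM. *Slc25a47*, best known from liver, and *Slc25a48*, linked to choline uptake, had disease log2 fold changes of -0.64 and -0.37, with overlapping groups. The call of *Slc25a48* was lost with library totals alone (-0.07, adjusted p = 0.586, edgeR) and within sets 1 and 2 (adjusted p = 0.142 and 0.0545, edgeR). *Slc25a53*, with medians of 2.0, 2.36 and 2.49 CPM, had a change of 0.22 on the log2 scale (SE 0.13, adjusted p = 0.117, edgeR), and was called with library totals alone (0.52, adjusted p = 0.000468, edgeR).

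Of the 5 members below the filter, *Slc25a54* had no read in any of the 34 libraries, which allows up to 3 counts, and *Slc25a18*, *Slc25a31* and *Slc25a41* had at most 4, 5 and 12 counts in any library. *Slc25a2*, an ornithine carrier, had 4 to 15 counts in each UNT library and 0 to 5 in each library of both other groups.

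Of the tested members, 11 overlap an exon of another gene on the opposite strand, and the strand setting of the counting is not given in the sources used here, so their counts are less certain. These include *Slc25a10*, *Slc25a11*, *Slc25a21*, *Slc25a23*, *Slc25a25*, *Slc25a33* and *Slc25a35*, with overlaps of 168 to 1151 bases.

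For the treatment comparison, 4 of the 11 RGLS4326 libraries were set apart. Reads that fell in no gene made up 13.9% to 14.7% of the reads in genes or in none in these 4 libraries, which include all 3 RGLS4326 libraries of the second set, 5.85% to 10.9% in the other 7, 6.11% to 11.0% in PBS and 13% to 15.0% in UNT libraries. PBS and UNT did not overlap in this share, so it and the disease cannot be told apart from these 2 groups alone. The 4 libraries lay within the UNT range of this share. Whether the share marks the library or the state of the kidney was not tested. Leaving the 4 out may therefore also leave out part of the response to treatment. For each called member the treatment value without the 4 libraries is given too, and is not taken as the better estimate.

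In the treatment comparison 11 of the 42 members were higher, 2 were lower and 29 were not called, whereas 15.3% of all tested genes were higher and 18.5% lower. The median log2 fold change of the members was 0.06, beside 0.00 over all tested genes, and the values ranged from -0.49 to 0.63. In none of the 42 members were the groups without overlap, which held for 10 of all tested genes, 0.0639%. In each of the 3 library sets all 11 higher members had a positive and both lower members a negative log2 fold change. These members were called from the same libraries, so their signs within the sets are no independent check. Without the 4 libraries set apart, *Slc25a40* and *Slc25a22* were called and 332 of all genes, against 13 members and 5280 genes with them. With this share as a term of the model *Slc25a40* was the only member called, beside 145 of all 15644 tested genes.

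*Slc25a40*, a glutathione carrier of the inner membrane, had the smallest p. It stood at 14.5 to 20.9 CPM in UNT mice (median 17.1), 7.26 to 11.1 in PBS mice (median 10.1) and 9.03 to 20.8 in RGLS4326 mice (median 13.5). In 10 of 11 RGLS4326 mice it was above the PBS mean. The treatment log2 fold change was 0.63 (SE 0.11, adjusted p = 0.000743, edgeR), with 0.46, 0.99 and 0.52 in library sets 1, 2 and 3. The 4 libraries set apart held 17.9 to 20.8 CPM and the other 7 held 9.03 to 13.6 CPM, and without the 4 the log2 fold change was 0.36 (adjusted p = 0.0447, edgeR). *Slc25a39*, which carries glutathione too, had a treatment log2 fold change of -0.11 (SE 0.08, adjusted p = 0.282, edgeR), and the ratio of *Slc25a39* to *Slc25a40* CPM had medians of 27.9, 27.6 and 19.1 in UNT, PBS and RGLS4326 mice.

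Of the 7 carriers of coenzymes and vitamins, 5 were higher after treatment. *Slc25a51*, the NAD carrier, stood at 111 to 155 CPM in PBS (median 123) and 129 to 172 in RGLS4326 mice (median 153), below 218 to 267 CPM in UNT mice. All 11 RGLS4326 mice were above the PBS mean, and the log2 fold change was 0.24 (SE 0.06, adjusted p = 0.00574, edgeR). *Slc25a32* stood at 11.8 to 19.4 CPM in UNT (median 14.2), 7.48 to 12.2 in PBS (median 10.1) and 10.5 to 17.5 in RGLS4326 mice (median 12.3), a treatment log2 fold change of 0.34 (SE 0.10, adjusted p = 0.00913, edgeR). It held 13.7 to 17.5 CPM in the 4 libraries set apart and 10.5 to 13.3 CPM in the other 7, which did not overlap, and without the 4 it was not called (0.21, adjusted p = 0.182, edgeR). *Slc25a42* was higher by 0.52 (SE 0.16, adjusted p = 0.0146, edgeR) in 11 of 11 mice against the PBS mean, and its highest RGLS4326 mouse, at 50.4 CPM, was still below the lowest UNT mouse at 117. *Slc25a16* stood at 29.4 to 65.2 CPM in PBS (median 45.2) and 47.0 to 80.7 in RGLS4326 mice (median 55.8), a change of 0.42 on the log2 scale (SE 0.13, adjusted p = 0.0146, edgeR). *Slc25a17* stood at 50 to 82.0 CPM in PBS (median 66.0) and 69.5 to 91.8 in RGLS4326 mice (median 76.3), a change of 0.25 on the log2 scale (SE 0.08, adjusted p = 0.0138, edgeR).

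For *Slc25a51*, *Slc25a42*, *Slc25a16* and *Slc25a17* the ranges of the 4 libraries set apart and of the other 7 overlapped. *Slc25a17*, for example, held 70.1 to 77.8 CPM in the 4 libraries and 69.5 to 91.8 CPM in the 7, and *Slc25a16* held 55.6 to 80.1 and 47.0 to 80.7 CPM. Without the 4 libraries their log2 fold changes were 0.20, 0.46, 0.38 and 0.26, with edgeR adjusted p of 0.0879, 0.123, 0.111 and 0.0808, so none of these was called. Of the enzymes around them, none of the 6 genes of coenzyme A synthesis was called, *Nadk2* and *Nnt* were higher among 3 mitochondrial NAD enzymes, and *Mthfd2* and *Mthfd1l* were lower among 5 folate enzymes. Without the 4 libraries *Nnt* (0.30, adjusted p = 0.0496, edgeR) and *Mthfd2* (-0.41, adjusted p = 0.0477, edgeR) were called, and *Nadk2* (0.36, adjusted p = 0.0968, edgeR) and *Mthfd1l* (-0.21, adjusted p = 0.191, edgeR) were not.

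*Slc25a36*, the pyrimidine nucleotide carrier, stood at 37.7 to 89.9 CPM in RGLS4326 mice (median 59.8), beside 18.6 to 56.6 in PBS mice. The treatment log2 fold change was 0.61 (SE 0.16, adjusted p = 0.00667, edgeR), and 9 of 11 mice were above the PBS mean. The 4 libraries set apart held 64.5 to 89.9 CPM and the other 7 held 37.7 to 66.1 CPM, and without the 4 the log2 fold change was 0.32 (adjusted p = 0.201, edgeR). *Slc25a33*, with the same substrates, had a treatment log2 fold change of 0.32 (SE 0.18, adjusted p = 0.172, edgeR).

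*Slc25a15*, the ornithine carrier, was higher by 0.37 (SE 0.10, adjusted p = 0.00947, edgeR), with all 11 RGLS4326 mice above the PBS mean, and held 61.4 to 84.3 CPM in the 4 libraries and 62.0 to 84.6 CPM in the 7. Without the 4 its log2 fold change was 0.38 (adjusted p = 0.0667, edgeR). *Gatm*, which uses arginine and releases ornithine, was higher by 0.87 (SE 0.21, adjusted p = 0.00462, edgeR). *Slc25a21* was higher by 0.39 (SE 0.15, adjusted p = 0.0464, edgeR), and was not called without the PBS library that correlated least with its group, replicate 9 (0.38, adjusted p = 0.069, edgeR). Without the 4 libraries it was not called either (0.37, adjusted p = 0.182, edgeR), and it was called in 5 of 13 alternatives. Among 4 enzymes of lysine breakdown *Aass* was higher, and without the 4 libraries neither *Aass* (0.66, adjusted p = 0.0705, edgeR) nor *Gatm* (0.83, adjusted p = 0.058, edgeR) was called.

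*Slc25a46* stood at 65.8 to 104 CPM in UNT (median 71.8), 30.6 to 50.4 in PBS (median 38.5) and 35.5 to 59.5 in RGLS4326 mice (median 52.7). The treatment log2 fold change was 0.34 (SE 0.09, adjusted p = 0.00818, edgeR), and 0.21 (adjusted p = 0.172, edgeR) without the 4 libraries.

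*Slc25a27* moved with that share. It stood at 8.54 to 11.8 CPM in UNT, 2.11 to 8.43 in PBS and 2.71 to 14.2 in RGLS4326 mice, and its treatment log2 fold change was 0.60 (SE 0.23, adjusted p = 0.0392, edgeR). In PBS mice the library with the lowest share, 6.11%, held 2.11 CPM and that with the highest, 11.0%, held 8.43 CPM. In RGLS4326 mice the library at 5.85% held 2.71 CPM, that at 10.9% held 7.32 CPM, and the 4 libraries above 13% held 10.2 to 14.2 CPM. Only 6 of 11 RGLS4326 mice were above the PBS mean, and without the 4 libraries the log2 fold change turned to -0.05 (adjusted p = 0.89, edgeR).

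**Figure D3:**
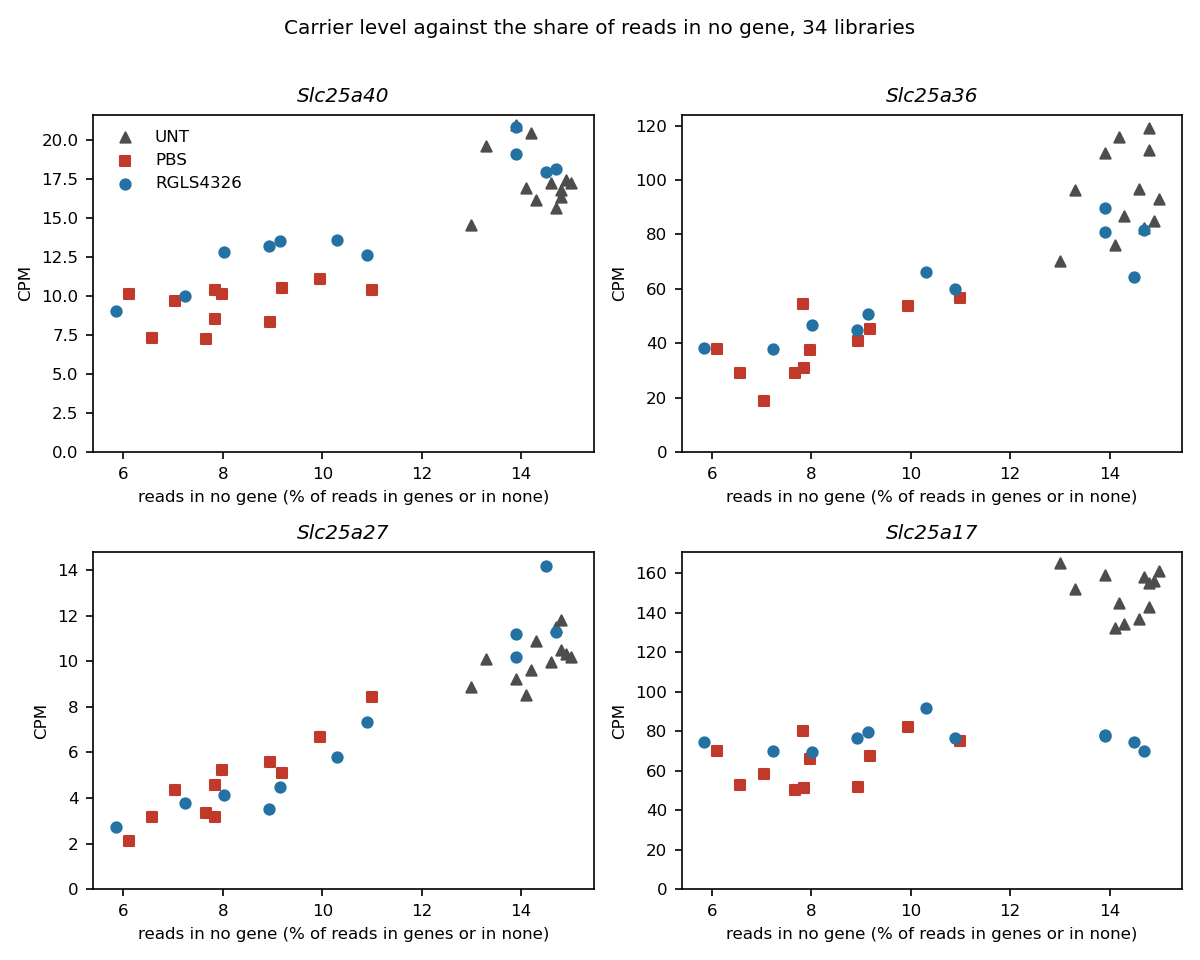
CPM of 4 carriers against reads in no gene (percent of reads in genes or in none) in 34 libraries, 1 point a mouse, with UNT as triangles, PBS as squares and RGLS4326 as circles. *Slc25a27* and *Slc25a36* are higher where the share is higher, *Slc25a40* is highest in UNT libraries and the 4 RGLS4326 libraries above 13%, and *Slc25a17* in those 4 libraries, at 70.1 to 77.8 CPM, is within the range of the other RGLS4326 libraries.

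Both members that were lower after treatment carry amino acids. *Slc25a29* stood at 5.65 to 10.1 CPM in PBS (median 7.54) and 2.38 to 8.03 in RGLS4326 mice (median 5.67), a change of -0.49 on the log2 scale (SE 0.15, adjusted p = 0.0139, edgeR) that was -0.33 (adjusted p = 0.134, edgeR) without the 4 libraries. *Slc25a22*, the glutamate carrier, fell by 0.24 on the log2 scale (SE 0.08, adjusted p = 0.0185, edgeR), with 10 of 11 RGLS4326 mice below the PBS mean. Without the 4 libraries it fell by 0.32 on the log2 scale (adjusted p = 0.0459, edgeR), and without PBS replicate 9 it was not called (-0.21, adjusted p = 0.0564, edgeR).

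**Figure D4:**
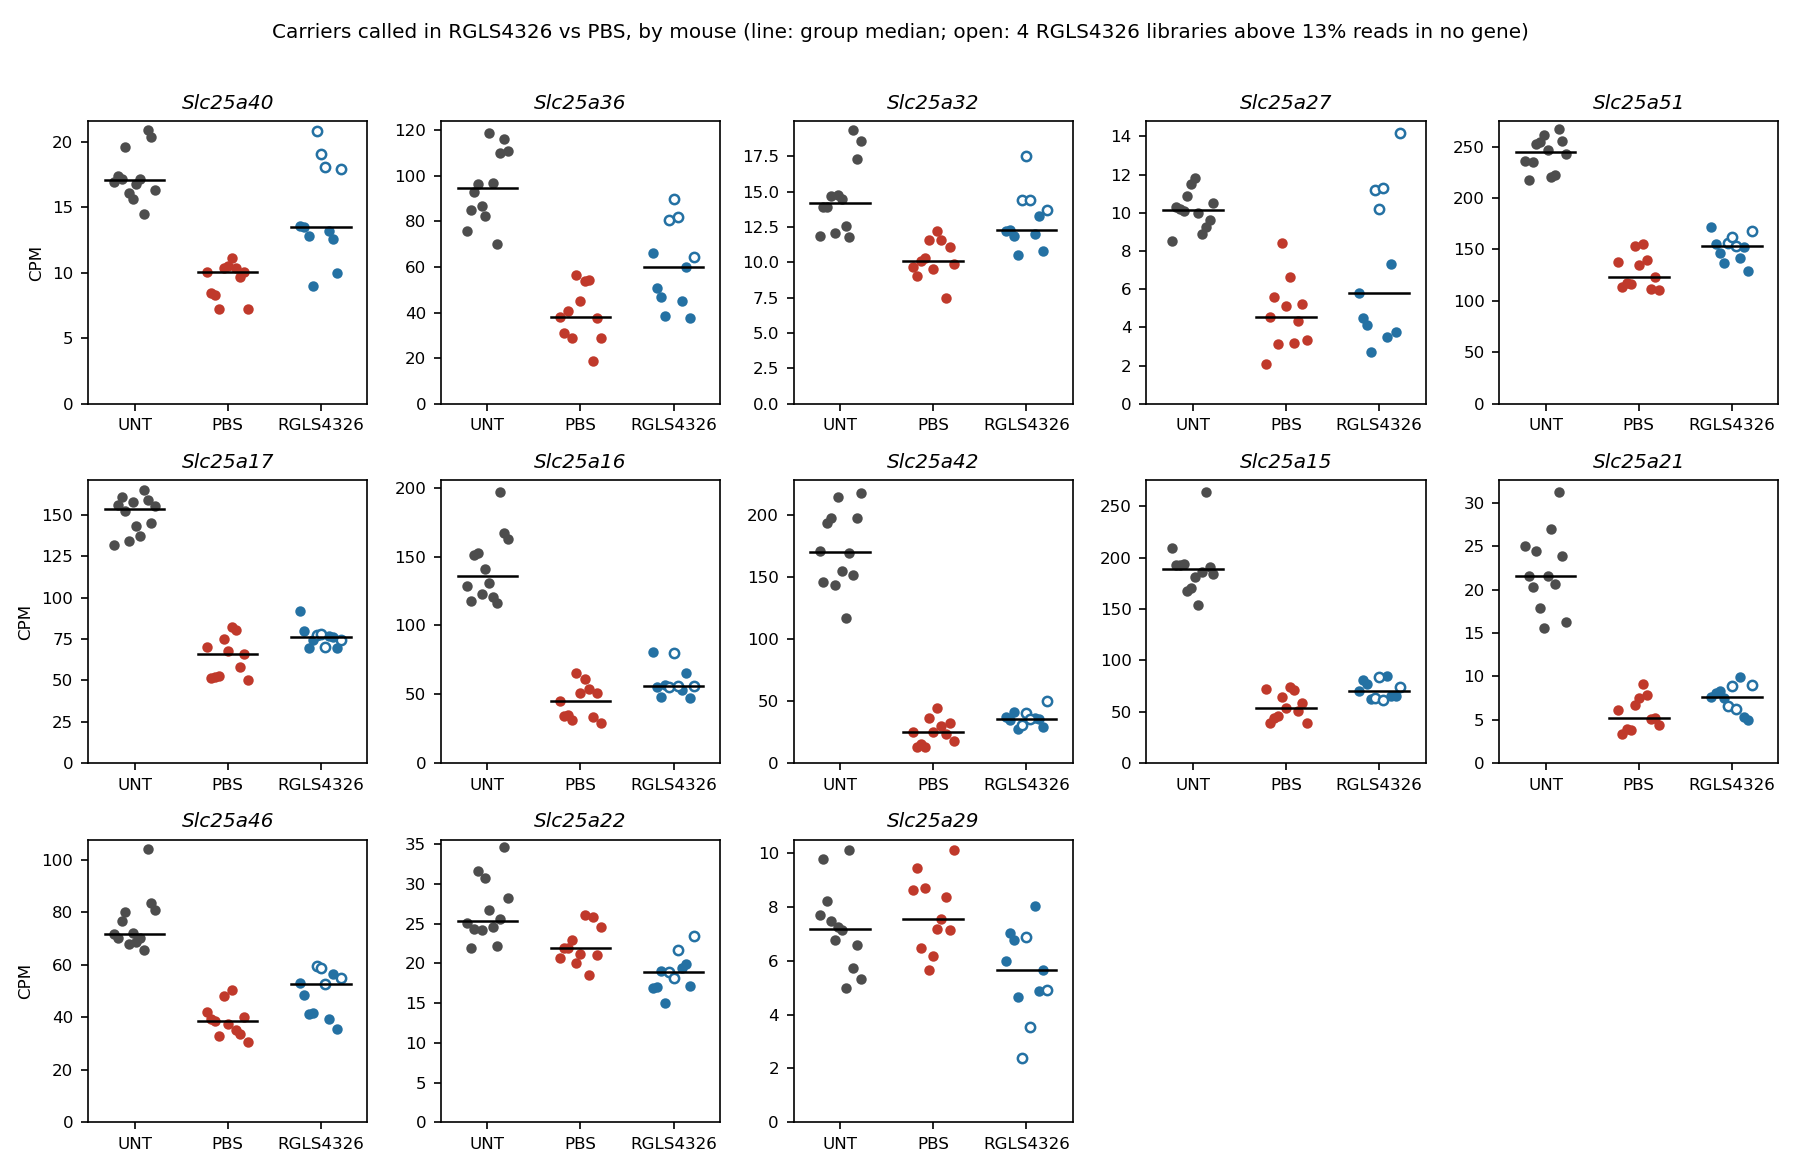
CPM per mouse (axes from 0, 1 point a mouse) of the 13 carriers called in RGLS4326 vs PBS, in UNT (n = 12), PBS (n = 11) and RGLS4326 (n = 11) kidneys, with the group median as a line and open points for the 4 RGLS4326 libraries with over 13% of reads in no gene. PBS and RGLS4326 points overlap in every panel, and the open points are the 4 highest RGLS4326 values for *Slc25a40*, *Slc25a32* and *Slc25a27*.

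The most abundant carriers were not called. *Slc25a3*, *Slc25a4* and *Slc25a5* had treatment log2 fold changes of -0.08, 0.00 and 0.15 (adjusted p = 0.344, 0.961 and 0.155, edgeR), *Slc25a10* of 0.09 (adjusted p = 0.56, edgeR), *Slc25a20* of -0.12 (adjusted p = 0.391, edgeR) and *Slc25a13* of 0.25 (adjusted p = 0.0662, edgeR). Neither *Slc25a24* nor *Slc25a43* passed the test. Markers of the proximal tubule were higher in 6 of 9 genes in the treatment comparison and those of the loop and distal tubule in 4 of 5, and in 4 of 9 and 0 of 5 without the 4 libraries. Podocyte markers were higher in 4 of 4 and endothelial markers in 3 of 4 genes, and in 0 and 2 without the 4 libraries. Of 6 collecting duct markers *Aqp2* (-0.78) and *Avpr2* (-0.62) were lower, and of the 10 genes of mitochondrial mass and biogenesis *Gabpa* (0.37) and *Ppargc1a* (0.53) were higher and *Phb2* (-0.22) was lower, with none of either list called by edgeR without the 4 libraries. The part of these cells and genes in the carrier changes was not tested.

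Against UNT mice, RGLS4326 mice had 36 members lower and 3 higher, where 36.9% and 40.8% of all tested genes were lower and higher, with a median log2 fold change of -0.68 beside 0.02 over all genes. The 3 higher members were *Slc25a24* (2.66, SE 0.08), *Slc25a43* (1.36, SE 0.13) and *Slc25a53* (0.36, SE 0.13). *Slc25a53* was not called without the 4 libraries set apart (0.30, adjusted p = 0.0641, edgeR) or in sets 1 and 3 alone (adjusted p = 0.436 and 0.313, edgeR). *Slc25a32* was among the 3 members not called, at -0.17 on the log2 scale (SE 0.09, adjusted p = 0.0995, edgeR). It was called lower without the 4 libraries (-0.30, adjusted p = 0.00805, edgeR), with the size factors of DESeq2 (adjusted p = 0.0468, edgeR) and with the DESeq2 test (adjusted p = 0.0426), and was positive but not called with library totals alone (0.15), with the share of reads outside genes in the model (0.05) and in set 2 alone (0.18). *Slc25a40* fell by 0.25 on the log2 scale (SE 0.11, adjusted p = 0.0324, edgeR), which turned to 0.06 with library totals alone and to 0.21 in set 2 alone. *Slc25a42* was far below UNT, with -2.26 (SE 0.16, adjusted p = 6.03e-15, edgeR).

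RGLS4326 blocks miR-17, which lowers mRNAs that carry a match to its seed, so the 3′UTRs of the members were searched for such matches. The mature miRNA is shown with its seed in capitals (bases 2 to 8; RefSeq, GRCm38.p6, chr14:115043684-115043706, plus strand).

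miR-17-5p: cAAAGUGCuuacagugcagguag

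A match was the 7 bases GCACTTT (7mer-m8) or CACTTTA (7mer-A1) on the transcript strand, with GCACTTTA (8mer) holding both. Of the 41 tested members with an annotated 3′UTR, 9 (22%) had a match, beside 3010 of 14186 tested genes (21.2%). Of the 11 members higher after treatment 4 had a match (36.4%), of the 28 not called 5 (17.9%), and of the 2 lower 0. Among all tested genes with a 3′UTR the shares were 36.6% of the higher, 20.7% of the uncalled and 11.0% of the lower genes, so the share among the higher members was close to that of all higher genes. The median 3′UTR was 2129 bases long in the higher and 1067 bases in the uncalled members, and 3′UTR length was not accounted for. Members with a match had a median treatment log2 fold change of 0.25 (n = 9) and those without one of 0.01 (n = 32), and without the 4 libraries these medians were 0.21 and 0.02. Over all tested genes the medians were 0.09 with and -0.03 without a match.

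The sites of the 4 higher members and the 8mer of *Slc25a44* are given next, each as the match in capitals with its neighbours on the transcript strand, because they are the places where these mRNAs could pair with the miRNA. *Slc25a40* has 3 matches at chr5:8453871-8453877, chr5:8454213-8454219 and chr5:8454566-8454573 (plus strand), and *Slc25a36* has 3 at chr9:97077757-97077763, chr9:97077708-97077714 and chr9:97075829-97075835 (minus strand). *Slc25a27* has an 8mer at chr17:43643477-43643484 (minus strand), *Slc25a32* a 7mer at chr15:39094547-39094553 (minus strand) and *Slc25a44* an 8mer at chr3:88411142-88411149 (minus strand), all in 3′UTRs of GENCODE M21 on GRCm38.

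Slc25a40 site 1: aaaagtgcagcCACTTTAtctgtgtgaacc
Slc25a40 site 2: aatatatttatCACTTTAagtaggaatgag
Slc25a40 site 3: taaagcaaaaaGCACTTTAtcacgttttat
Slc25a36 site 1: cagaggaccttCACTTTAcactttgtgcaa
Slc25a36 site 2: actttgtgaatGCACTTTgtggccttttga
Slc25a36 site 3: tttatgctgtcCACTTTAgaaaataaagga
Slc25a27: tgcagggggcaGCACTTTAtctctttatgg
Slc25a32: gactatatctaCACTTTAtttgggtatctc
Slc25a44: ccccacttcctGCACTTTAttgagagagcc

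*Slc25a40* and *Slc25a36*, the only members with 3 matches, had treatment log2 fold changes of 0.63 and 0.61, the 2 highest of the tested members over all libraries. Without the 4 libraries set apart they had 0.36 and 0.32, below *Slc25a42* (0.46), *Slc25a15* (0.38), *Slc25a16* (0.38) and *Slc25a21*, which have no match. *Slc25a32* and *Slc25a27* had 0.21 and -0.05. *Slc25a44*, with a complete 8mer, had 0.10 (SE 0.05, adjusted p = 0.113, edgeR). *Slc25a4*, *Slc25a10*, *Slc25a13* and *Slc25a26*, each with a single 7-base match, ranged from -0.06 to 0.25 and were not called. *Slc25a51*, *Slc25a42*, *Slc25a16*, *Slc25a17*, *Slc25a15*, *Slc25a21* and *Slc25a46* were higher without a match in the searched 3′UTR. These matches are letters in an annotation and do not show binding.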

How the data were processed

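Kidney RNA from 34 mice was read from 34 tables of counts per gene, 1 for each library. Per the labels and the study's methods, the authors made stranded mRNA libraries, trimmed paired reads with Trim Galore, aligned them to GRCm38 (mm10) with STAR and counted reads per gene with HTSeq. The submitters' processing notes name FastQC 0.11.2, SAMtools 1.1, Picard 1.119 and HTSeq 0.6.1. The annotation and the strand setting are not given in the sources used here. The deposited counts were not normalized. Rows that name no gene were left out of library sizes and tests, and reads in no gene were 5.85% to 15.0% of reads in genes or in none.

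Groups came from the labels (UNT n = 12, PBS n = 11, RGLS4326 n = 11). Library sets are the 3 runs of the numbering in the table names, and what they stand for is not given in the sources used here. Genes were filtered with filterByExpr (15644 of 23509 kept), scaled by TMM and tested with edgeR 4.0.16 (R 4.3.3) by a quasi-likelihood fit over all 34 libraries and 3 groups, with Benjamini-Hochberg adjustment over all tested genes. P-values measure the spread between these mice. No 2 libraries held identical counts. Levels per kb used the principal transcript. Tested on simulated data for RGLS4326 vs PBS over 15383 genes, the fit called 89 of 98 genes changed by 1 on the log2 scale, 77 of 99 changed by 0.5, and 9 of 15186 unchanged genes. The simulated libraries were independent, and UNT was given the PBS levels. They held no effect of library set or of the share of reads in no gene, so these rates do not cover such effects.

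Alternatives were the size factors and test of DESeq2 1.42.0, library totals alone, no filter on low counts, library set or the share of reads outside genes as a covariate, the replicate number as a block, the compared groups alone, and each set alone. Leaving out 4 RGLS4326 libraries or 1 PBS library was chosen after seeing the data. By rule, ranges over mice are given for the 6 called members with the largest disease change in each direction, the 6 called members in each direction with the smallest treatment p, members called with the same sign in both comparisons, the 4 members highest per kb in UNT, and classes called in opposite directions. Values of 1 tested member and 1 listed enzyme are not reported here, although both are in the counts. Ranges of other members were added after their values were seen. The members, classes and gene lists were chosen with earlier results of these data known.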

Additional observations from a re-analysis of the deposited data

How the results depend on the processing

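Of the 38 members called in disease, 3 turned direction under an alternative: *Slc25a22* (0.04) and *Slc25a44* (0.08) with library totals alone and *Slc25a27* (0.42) with reads in no gene as a covariate, where 3 members were higher and 32 lower. Disease calls were lost with library totals alone for *Slc25a1*, *Slc25a22*, *Slc25a28*, *Slc25a44* and *Slc25a48*, with the covariate for *Slc25a22*, *Slc25a32* and *Slc25a37*, in sets 1 and 2 for *Slc25a48*, and in set 3 for *Slc25a1*, *Slc25a22*, *Slc25a28* and *Slc25a47*. In RGLS4326 vs UNT *Slc25a27* (0.25) and *Slc25a40* (0.07) turned with that covariate, *Slc25a40* (0.06) and *Slc25a44* (0.19) with library totals, and *Slc25a40* (0.21) in set 2 alone. Library totals moved the median of all genes from 0.04 to 0.33 in disease and the median of the members from -0.73 to -0.43 (RGLS4326 vs UNT, -0.37), and in set 1 alone the disease median was -0.91. The treatment calls were less stable. Of 13 members called, 2 were called without the 4 RGLS4326 libraries and 1 with reads in no gene as a covariate. Of all tested genes, 332 and 145 were called in these settings. In sets 1, 2 and 3 alone 0, 5 and 0 of the 13 were called, beside 54, 4065 and 0 of all tested genes. Each set compared fewer mice, and 17, 12 and 7 members had an unadjusted edgeR p under 0.05. All 3 RGLS4326 libraries of set 2 are among the 4 with the most reads in no gene. Set 2 called 8 members in all, of which *Slc25a11*, *Slc25a39* and *Slc25a48* were not called over all libraries. *Slc25a27* turned to -0.18 with the covariate and to -0.05 without the 4 libraries. Without PBS replicate 9 *Slc25a21*, *Slc25a22* and *Slc25a27* were not called (adjusted p = 0.069, 0.0564 and 0.0569, edgeR), and 9 members were higher and 1 lower. *Slc25a40* ranged from 0.35 to 0.99 and was called in 11 of 13 alternatives (adjusted p from 1.22e-05 to 0.262, edgeR or DESeq2). *Slc25a21* also lost its call with no filter on low counts (adjusted p = 0.0548, edgeR), and it and *Slc25a27* with the 2 compared groups alone (adjusted p = 0.0743 and 0.0886, edgeR). DESeq2 gave 11 higher and 2 lower. With the replicate block 11 members were higher and 2 lower in treatment, and 2 and 36 in disease. Correlations between the deviations of mice of the same number ran from -0.415 to 0.454. Their medians were -0.0722 for UNT and PBS, 0.0515 for PBS and RGLS4326, and -0.0413 for UNT and RGLS4326. Of 11 pairs each, 2, 5 and 3 were above 0.1. The numbers were not taken as pairs in the main fit. Members at a few CPM, such as *Slc25a43*, rest on the fewest counts.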

Other observations

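Of 7 mitochondrial carriers outside the symbol rule, 5 were lower in cystic kidneys and 2 were higher, *Mtch1* and the second uncoupling protein, *Ucp2*. *Ucp2* stood at 109 to 173 CPM in UNT, 341 to 817 in PBS and 211 to 507 in RGLS4326 mice. PBS and UNT mice did not overlap, and the log2 fold change was 1.87 (SE 0.13, adjusted p = 3.79e-15, edgeR) in disease and -0.57 (SE 0.13, adjusted p = 0.0039, edgeR) after treatment. The 5 macrophage markers had median log2 fold changes of 4.44 in disease and -0.48 after treatment. The part of these cells in the level of *Ucp2* was not tested. *Ucp1*, the uncoupling protein of brown fat, had a disease log2 fold change of -2.73 (SE 0.54, adjusted p = 2.03e-05, edgeR). It had 6.31 to 95.3 CPM in UNT and 0.679 to 30.5 CPM in PBS mice, which overlapped. Of 4 adipocyte markers, *Cidea* (-1.45) and *Fabp4* (-0.59) were lower in disease, *Adipoq* (0.82) was higher and *Plin1* (-0.05) was not called. The part of fat in the level of *Ucp1* was not tested. The pyruvate carrier subunits *Mpc1* and *Mpc2* fell by 1.90 and fell by 1.47 on the log2 scale in disease and were not called after treatment.

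Of 5 sideroflexins, a separate family of mitochondrial serine and amino acid carriers, 4 were lower and 1 was higher in disease. *Sfxn3* stood at 33.6 to 47.0 CPM in UNT, 55.9 to 94.6 in PBS and 50.1 to 74.6 in RGLS4326 mice, with log2 fold changes of 0.98 (SE 0.08) in disease and -0.32 (SE 0.08) after treatment. *Sfxn2* had -1.86 (SE 0.09) and 0.33 (SE 0.09). Of 11 tested genes that import carriers into the inner membrane, 9 were lower in disease, and 5 were lower and 1 higher after treatment. Without the 4 RGLS4326 libraries with the most reads in no gene, *Ucp2* (-0.36, adjusted p = 0.0966), *Sfxn3* (-0.30, adjusted p = 0.0665) and *Sfxn2* (0.29, adjusted p = 0.0812) were not called after treatment by edgeR, nor was any of the 11 import genes. The 2 comparisons share the PBS mice.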
